A study of Mus musculus with 6 samples.

Results

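The collagen genes were followed in whole kidneys of mice with cisplatin-induced chronic kidney disease and of control mice. Every protein-coding gene whose GENCODE mouse symbol has the form Col, a type number, a and a chain number was taken, which gave 44 genes of the 56691 listed in the count files. They comprised 11 fibrillar chains, the 6 chains of type IV collagen of basement membranes, and 27 other chains. The rule reads the gene symbol only.

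Total RNA of kidney was sequenced as a strand-marking library from each of 3 control and 3 cisplatin mice. The mice were C57BL/6 males, aged 9 weeks at the start, that had received 4 intraperitoneal injections of cisplatin at 8 mg/kg or of the saline vehicle, and the kidneys were taken at week 7. The genotype label of the treated mice reads cisplatin induced CKD (chronic kidney disease) and that of the others reads control, with no allele named in either group. Only males, 1 dose and 1 time point were sampled, so dose, sex and course could not be compared.

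A collagen is built of 3 chains wound around each other, and each chain carries long stretches in which glycine returns at a fixed spacing with a pair of other residues between (Gly-X-Y). Fibrillar collagens form the rope-like fibrils of interstitial connective tissue, and their build-up between the tubules is the hallmark of kidney fibrosis. Type IV collagen forms the sheet-like network of basement membranes. In the kidney, a network of the Col4a1 and Col4a2 chains lies in most basement membranes, whereas the mature filter of the glomerulus uses the Col4a3, Col4a4 and Col4a5 chains made by podocytes. Loss of any of these filter chains causes Alport syndrome. The other collagens coat fibrils, anchor epithelia, bead along cell surfaces or span the cell membrane.

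The division between fibrillar and type IV chains can be read from the coding sequence. In the canonical GENCODE coding sequences, the longest unbroken Gly-X-Y run of the 11 fibrillar chains held between 216 and 344 triplets, with a median of 338. In the 6 type IV chains the longest run held between 39 and 66 triplets, and 21 to 26 breaks interrupted the repeat. The longest run of the 27 other chains held between 23 and 113 triplets, with a median of 45. This range covered that of type IV, and the other chains had 1 to 20 breaks. The exons differed as well. Exons of 54 bases, which hold 6 whole triplets, made up 47.1% of the 647 coding exons of the fibrillar genes but 4.1% of the 296 coding exons of the type IV genes. Pooled over the 27 other genes the share lay between these values, at 14.4% of 1056 exons. Single genes of this class differed widely, from 0 of 13 coding exons in Col26a1 to 14 of 32 in Col9a2, for example.

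To show this difference, an exon of each of the 3 fibrillar genes that lead the interstitial matrix is given, followed by an exon with a break from each of 2 type IV genes that moved in opposite directions. Sequences are read on the coding strand of GRCm39, and capitals mark the glycine codons of the repeat.
Col1a1, coding exon 8 of 51, chr11:94830730-94830783, plus strand: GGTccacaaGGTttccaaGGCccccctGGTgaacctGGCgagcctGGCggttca
Col1a2, coding exon 8 of 52, chr6:4515481-4515534, plus strand: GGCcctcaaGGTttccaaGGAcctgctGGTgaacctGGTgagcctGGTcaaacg
Col3a1, coding exon 6 of 51, chr1:45364520-45364573, plus strand: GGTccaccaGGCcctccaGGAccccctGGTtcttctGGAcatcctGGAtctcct
Col4a1, coding exon 9 of 52, chr8:11294486-11294569, minus strand: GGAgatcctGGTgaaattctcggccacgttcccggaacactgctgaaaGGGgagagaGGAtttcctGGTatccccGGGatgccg
Col4a3, coding exon 12 of 52, chr1:82634572-82634613, plus strand: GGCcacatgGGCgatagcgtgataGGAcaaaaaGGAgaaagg
The 3 fibrillar exons held 6 glycine codons each at a spacing of 9 bases with no gap. The exon of Col4a1 held a break of 10 residues after its leading triplets, and that of Col4a3 a break of 2 residues.

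**Figure D1:**
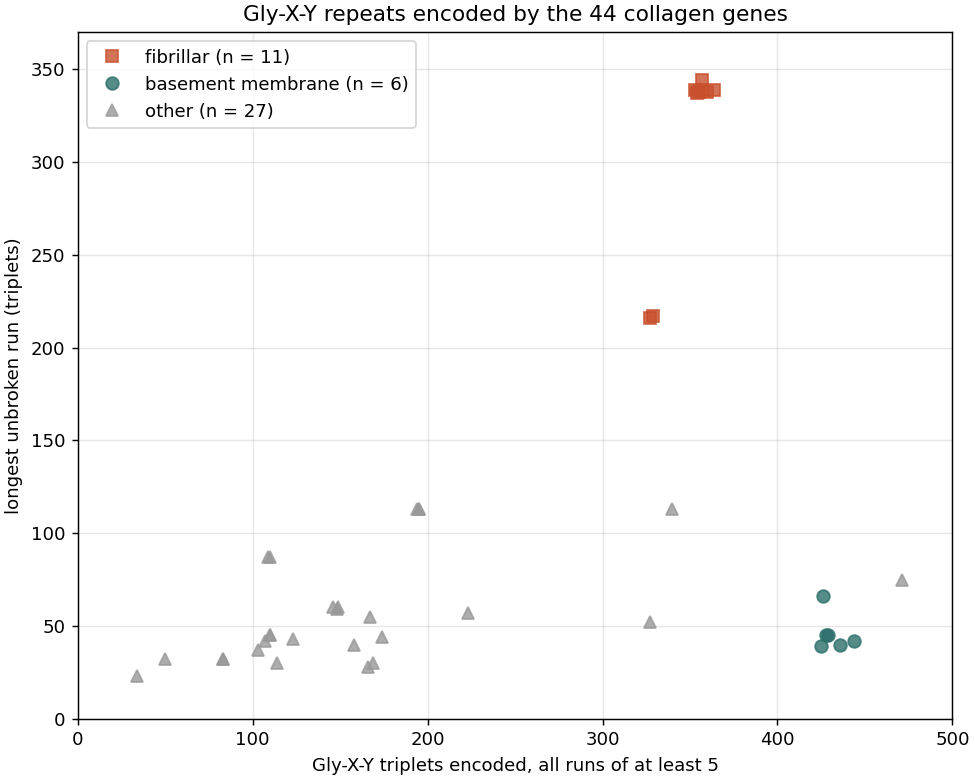
Number of Gly-X-Y triplets encoded by each of the 44 collagen genes, counted in runs of at least 5, against the length of its longest unbroken run in triplets. Each point is a gene. The fibrillar genes hold 216 to 344 triplets in their longest run, while the type IV genes encode as many triplets or more but in runs of at most 66.

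Between 21891855 and 26627554 read pairs were counted on the transcript strand per library, and collagen genes took 0.107% to 0.284% of them. Pairs that overlapped no annotated exon on that strand made up 4.63% to 4.86% of the pairs in control and 6.09% to 9.32% in cisplatin libraries. Cisplatin replicate 1 was the highest. A gene was tested with edgeR's quasi-likelihood test where its counts allowed, and p-values were adjusted over all 15662 genes tested by the Benjamini-Hochberg method. Of all these genes, 24.5% were called higher and 22.8% lower in the cisplatin kidneys at an adjusted p under 0.05, and the median log2 fold change was 0.05. Levels are given as CPM, counts scaled to a common library size with TMM factors. Levels are compared between genes only as CPM per kilobase of exon.

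Most of the collagen genes tested were higher in the cisplatin kidneys, and a few were lower. Of the 44 genes, 35 had enough counts to be tested. Of these, 22 were higher in the cisplatin kidneys (62.9%, against 24.5% of all genes) and 4 were lower (11.4%, against 22.8%), and 9 were not called. Their median log2 fold change was 0.85, and the values ran from -4.40 to 3.08. All cisplatin libraries lay above all control libraries for 22 collagens, against 30.2% of all genes tested, and below them for 4, against 27.6%. The call and the separation differed for 2 genes, since Col8a2 was called with overlapping groups and Col5a2 was separated but not called.

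Of the 35 tested genes, 6 passed the count filter only through their cisplatin libraries (Col6a5, Col8a2, Col11a1, Col11a2, Col17a1 and Col20a1) and 2 only through their control libraries (Col6a6 and Col19a1). Since such a gene entered the test through the group where it was high, its test is no independent support. With at least 10 counts asked of every library, 17 collagens were higher and 2 lower, the latter being Col4a3 and Col4a4. The 9 untested genes had at most 18 counts in any library. They were the cartilage chains Col2a1, Col9a1, Col9a2, Col9a3 and Col10a1, together with Col6a4, Col22a1, Col25a1 and Col28a1. With no filter on low counts, edgeR called Col6a4 lower and Col10a1 higher (adjusted p = 0.000169 and 3.74e-05), 6 of the 9 were not called, and Col9a1 had no count.

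**Figure D2:**
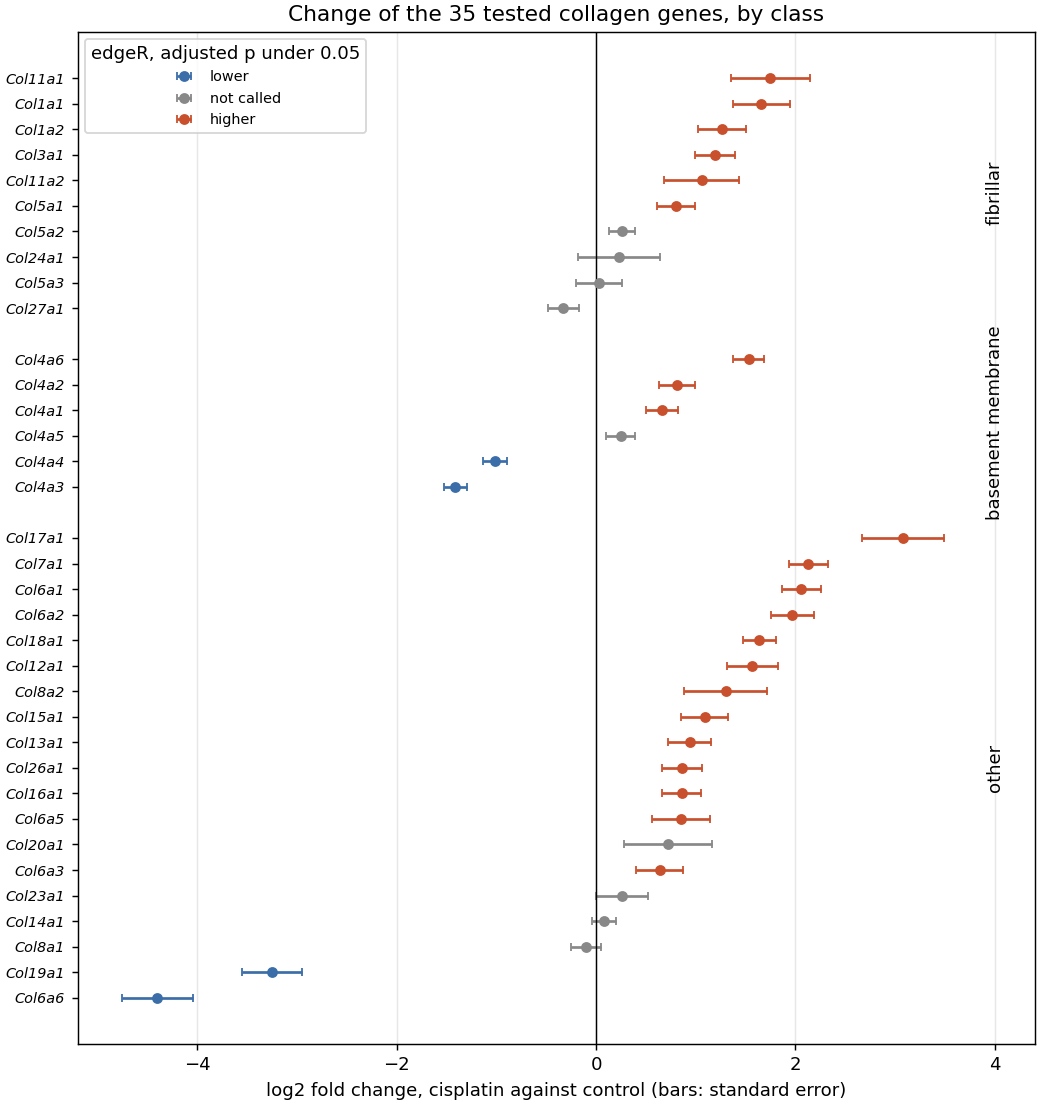
Log2 fold change of the 35 tested collagen genes, cisplatin against control, with bars of 1 standard error, n = 3 libraries per group. Red points were called higher, blue points lower and grey points not called (edgeR, adjusted p under 0.05). The fibrillar points reach from -0.33 to 1.75, the type IV points lie on both sides of 0, and the lowest 2 points, Col6a6 and Col19a1, which entered the test through their control libraries only, are at -4.40 and -3.25.

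The fibrillar collagens rose or were not called. Of 11 genes, 10 were tested and 6 were higher (60%, against 24.5% of all genes), with a median log2 fold change of 0.93. None was lower by edgeR, by DESeq2 or at an unadjusted p under 0.05 (0 genes each). The type I chains and type III form the bulk of interstitial fibrils. Col1a1 stood at 17.1, 14.5 and 12.1 CPM in control and at 72.6, 33.1 and 32.4 CPM in cisplatin kidneys. The highest control library lay well below the lowest cisplatin library. The increase was 3.16-fold (log2 fold change 1.66, SE 0.285, edgeR adjusted p = 0.000761).

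Col1a2, the partner chain of Col1a1, measured 46.0, 43.5 and 34.9 CPM in control and 147, 84.6 and 67.0 CPM in cisplatin kidneys. Its log2 fold change was 1.26 (SE 0.241, edgeR adjusted p = 0.00153). Col3a1, which co-assembles in type I fibrils, went from 53.4, 46.9 and 40.0 CPM to 147, 89.5 and 82.4 CPM. The groups were separate for both genes, and Col3a1 changed by 1.19 on the log2 scale (SE 0.200, edgeR adjusted p = 0.000675). Per kilobase of exon, Col3a1 was the most abundant fibrillar collagen in both groups, at 4.55 ± 0.653 (SD, n = 3) CPM per kilobase in control and 10.4 ± 3.47 in cisplatin kidneys.

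The type V and XI chains, which sit in the core of fibrils and limit their width, gave mixed results. Col5a1 was 1.74-fold higher (log2 fold change 0.80, edgeR adjusted p = 0.00585). Col5a2 measured 22.6, 23.6 and 22.7 CPM in control and 33.9, 23.7 and 24.7 CPM in cisplatin kidneys. All 3 cisplatin values lay above the control values, yet 2 of them only narrowly, and the gene was not called (log2 fold change 0.26, SE 0.131, edgeR adjusted p = 0.128). Col5a3 had a log2 fold change of 0.03 (SE 0.231) and was not called either.

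Both type XI chains were rare and entered the test through their cisplatin libraries only. Col11a1 had 3 counts in each control library and 16, 13 and 10 counts in the cisplatin libraries, a log2 fold change of 1.75 (SE 0.394, edgeR adjusted p = 0.00412). Col11a2 had 8, 6 and 3 counts against 17, 18 and 10. The call on Col11a2 (log2 fold change 1.06, edgeR adjusted p = 0.0402) did not hold with DESeq2 (adjusted p = 0.175) or when any of 5 single libraries was left out. The remaining fibrillar genes, Col24a1 and Col27a1, were not called, at log2 fold changes of 0.23 (SE 0.411) and -0.33 (SE 0.155). These 2 genes also encode the shortest longest runs of the fibrillar class, 216 and 217 triplets.

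**Figure D3:**
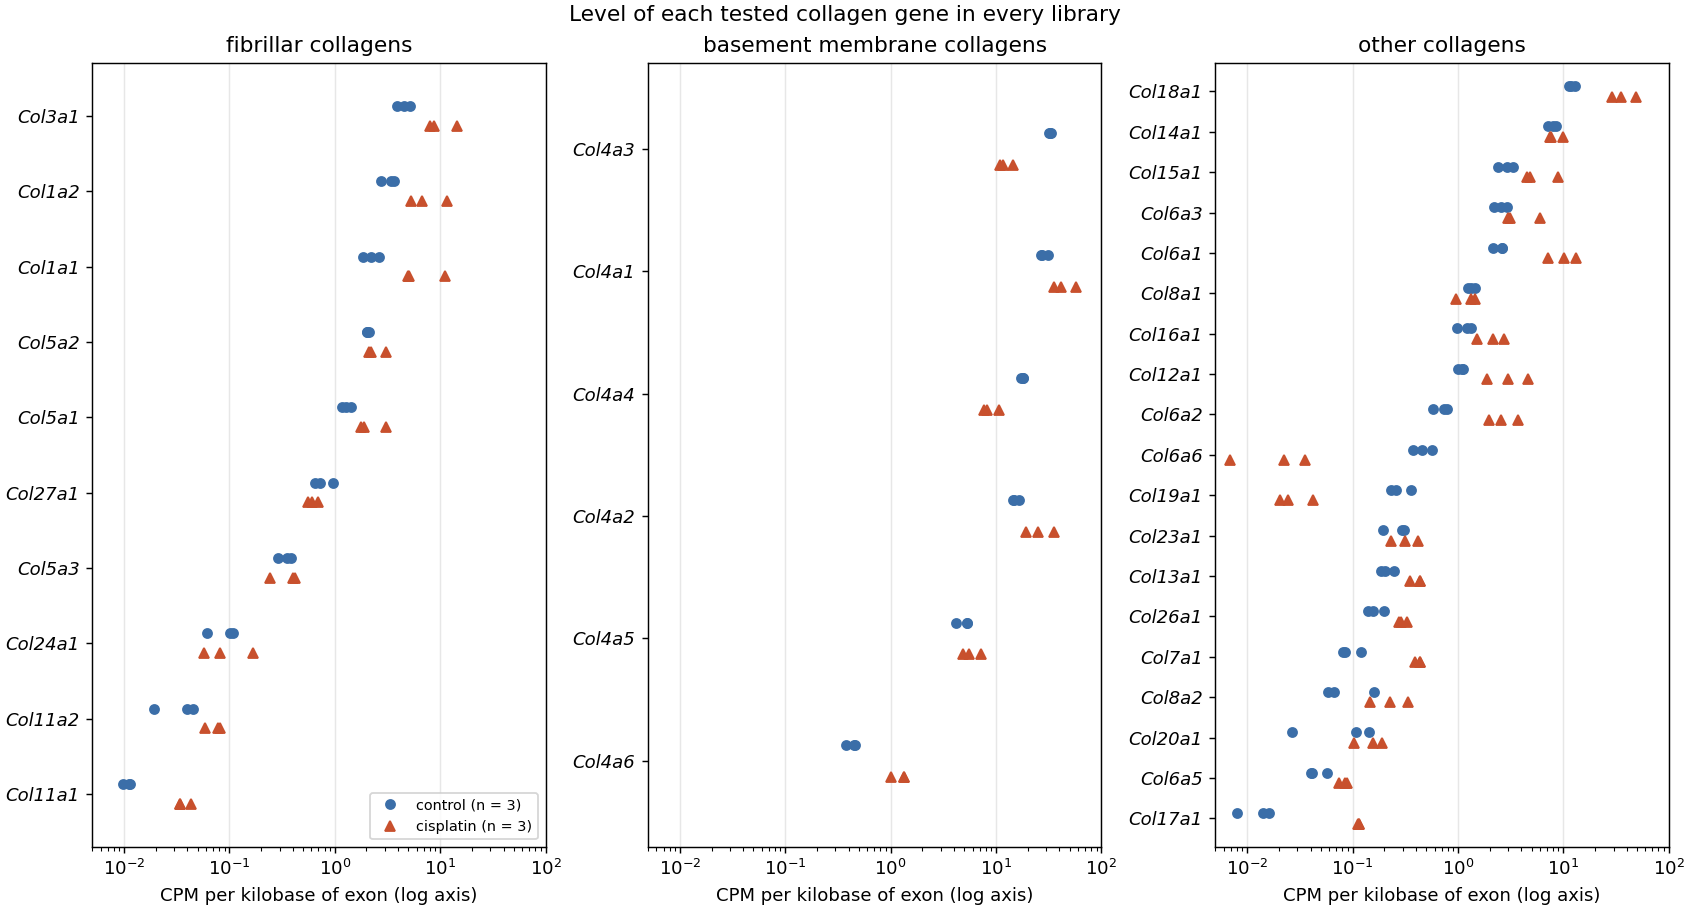
Level of each of the 35 tested collagen genes in every library, in CPM per kilobase of exon on a log axis, with 3 control libraries (blue circles) and 3 cisplatin libraries (red triangles) per gene and genes ordered by their control mean. Col4a3 and Col4a4 sit to the left in the cisplatin libraries, while Col4a1 and Col4a2, at a like level, sit to the right.

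Type IV collagen split by chain. Col4a1, Col4a2 and Col4a6 were higher, Col4a3 and Col4a4 lower, and Col4a5 was not called, so that the median log2 fold change of the 6 was 0.46. Col4a1 measured 235, 203 and 202 CPM in control and 434, 312 and 263 CPM in cisplatin kidneys. Col4a2 measured 118, 108 and 105 CPM in control and 258, 181 and 139 CPM in cisplatin kidneys. The groups were separate for both chains of this widespread network. The changes were alike in size, a log2 fold change of 0.66 (SE 0.163, edgeR adjusted p = 0.00696) for Col4a1 and of 0.81 (SE 0.182, edgeR adjusted p = 0.00409) for Col4a2.

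Col4a3, a chain of the glomerular filter, measured 327, 320 and 334 CPM in control and 143, 115 and 110 CPM in cisplatin kidneys. Its level was 2.66-fold lower (log2 fold change -1.41, SE 0.112, edgeR adjusted p = 4.25e-06). The control values lay within a narrow band and far above the cisplatin values. Col4a4, its partner, measured 205, 207 and 199 CPM in control and 121, 88.4 and 94.0 CPM in cisplatin kidneys, a 2.01-fold decrease (log2 fold change -1.01, SE 0.119, edgeR adjusted p = 6.16e-05).

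Col4a5, the third chain of the filter, measured 49.4, 49.6 and 39.1 CPM in control and 67.2, 52.0 and 45.2 CPM in cisplatin kidneys. The groups overlapped, and the gene was not called (log2 fold change 0.25, SE 0.145, edgeR adjusted p = 0.178). Without cisplatin replicate 3 it was called higher (log2 fold change 0.34, edgeR adjusted p = 0.0377). Col4a6, which pairs with Col4a5 in the capsule around the glomerulus and in some tubules, measured 3.62, 3.65 and 2.98 CPM in control and 10.8, 10.8 and 8.07 CPM in cisplatin kidneys. It was 2.89-fold higher (log2 fold change 1.53, SE 0.157, edgeR adjusted p = 2.25e-05), from the lowest level of the 6 chains.

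In control kidneys Col4a3 was the most abundant of all collagens per kilobase of exon, at 32.8 ± 0.701 (SD, n = 3) CPM per kilobase, ahead of Col4a1 at 28.6 ± 2.55. In cisplatin kidneys Col4a1 led at 45.1 ± 11.8, Col18a1 followed at 37.5 ± 10.3 and Col4a2 at 26.8 ± 8.38, and Col4a3 came next at 12.3 ± 1.80 CPM per kilobase. Among the upper 3 the ranges over libraries overlapped between neighbours in this order, and Col4a3 lay below the range of Col4a2.

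Beside the fall of Col4a3 and Col4a4, markers of podocytes were higher or not called. Of 10 podocyte markers tested, 5 were higher (50%, against 24.5% of all genes) and 5 were not called. The summed level of the 10, with none at 0, was 196 to 208 CPM in control and 219 to 302 CPM in cisplatin kidneys. Podxl, which coats the podocyte surface, had a log2 fold change of 0.16 (edgeR adjusted p = 0.294). Markers of the proximal tubule fell in 9 of 10 cases (90%, against 22.8% of all genes). They summed to 32270 to 32660 CPM in control and 5080 to 5207 CPM in cisplatin kidneys. Kap made up most of the control sum, and without it the other 9 summed to 10660 to 11920 CPM in control and 4669 to 4942 CPM in cisplatin kidneys. Lrp2, the megalin receptor of the brush border, measured 3793 to 4386 CPM in control and 1387 to 1713 CPM in cisplatin kidneys. Kap, a proximal tubule protein under androgen control, measured 20740 to 21610 CPM in control and 164 to 412 CPM in cisplatin kidneys. The part of the tubule markers in the type IV changes was not tested. In these whole-kidney libraries fewer cells of a type and less RNA per cell cannot be told apart.

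Ratios between chains are free of any scaling between libraries and show the split within each kidney. The sum of Col4a1 and Col4a2 stood to the sum of Col4a3, Col4a4 and Col4a5 at 0.855, 0.760 and 0.755 in the control libraries, as counts per kilobase of exon. In the cisplatin libraries it was 2.92, 2.69 and 2.27. The mean went from 0.790 ± 0.0566 to 2.63 ± 0.331 (SD, n = 3 per group). Each kidney thus had less of the widespread chains than of the filter chains in the control group and more in the cisplatin group.

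Within the filter chains, the ratio of Col4a5 to Col4a3 went from 0.151 ± 0.0222 to 0.474 ± 0.0316, and that of Col4a4 to Col4a3 from 0.543 ± 0.0225 to 0.718 ± 0.0427, each without overlap between the groups. The ratio of Col4a2 to Col4a1 was 0.537 ± 0.0156 in control and 0.590 ± 0.0360 in cisplatin kidneys and overlapped. The ratios are given as a description with no test. The smallest exact permutation p that 3 against 3 libraries allow is 0.1.

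**Figure D4:**
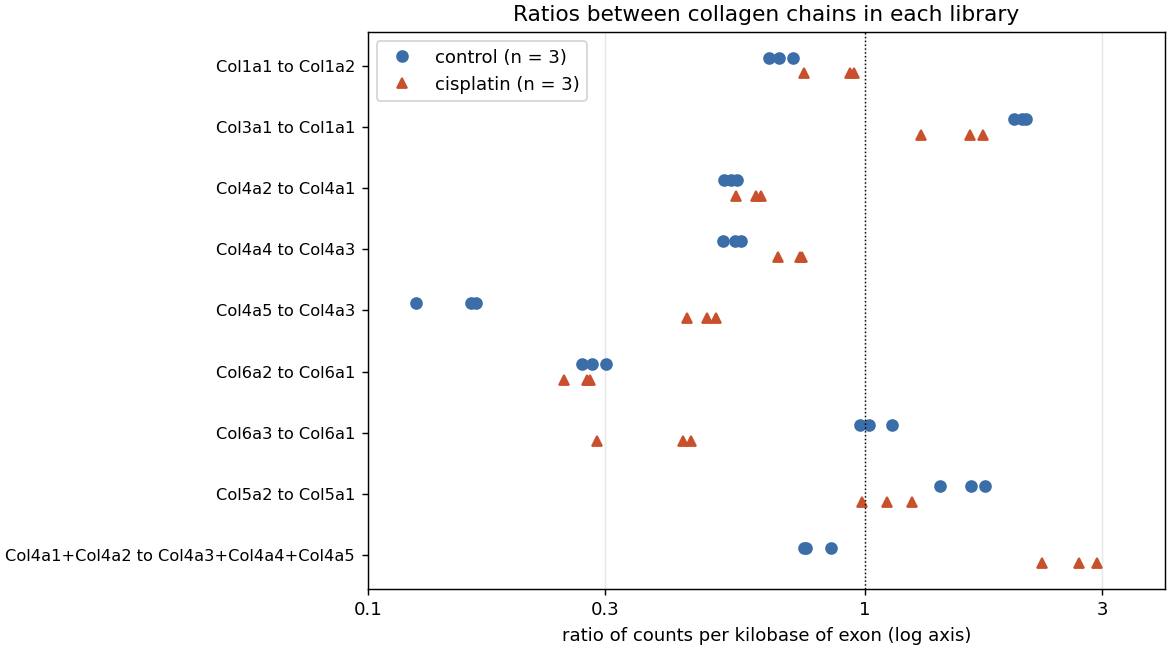
Ratio of counts per kilobase of exon between collagen chains in each library on a log axis, 3 control (blue circles) and 3 cisplatin (red triangles) libraries, with a dotted line at equal levels. The groups are apart in 7 of the 9 ratios, and only Col4a2 to Col4a1 and Col6a2 to Col6a1 overlap.

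The type IV genes lie in 3 pairs placed head to head, in which neighbours are read in opposite directions from starts close together. Col4a1 and Col4a2 on chromosome 8 have GENCODE starts 317 bases apart, and both rose. Col4a3 and Col4a4 on chromosome 1 have starts 103 bases apart, and both fell. In both of these pairs the gene models overlap at their starts, on opposite strands, and the counts used here keep the strands apart. Col4a5 and Col4a6 on the X chromosome start 1282 bases apart, and of these Col4a6 was called and Col4a5 was not.

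For the pairs whose members moved together, the RefSeq promoter window of 1 member is shown. Each runs from 250 bases before to 50 bases after the start on GRCm38.p6, on the strand of the named gene. Capitals mark the CCAAT box and the GC box, found on either strand. The letters searched for the CCAAT box were those of its name, with the reverse complement ATTGG. For the GC box the letters were GGGCGG, with the reverse complement CCGCCC. The motif TATAAA was looked for as well.
Col4a1, chr8:11312777-11313076, minus strand: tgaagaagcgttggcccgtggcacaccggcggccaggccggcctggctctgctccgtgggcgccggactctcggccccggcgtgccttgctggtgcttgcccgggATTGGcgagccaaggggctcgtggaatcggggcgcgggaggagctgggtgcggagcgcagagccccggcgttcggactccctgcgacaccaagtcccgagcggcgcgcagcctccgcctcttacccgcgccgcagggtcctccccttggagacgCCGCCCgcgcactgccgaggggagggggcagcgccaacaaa
Col4a4, chr1:82586800-82587099, minus strand: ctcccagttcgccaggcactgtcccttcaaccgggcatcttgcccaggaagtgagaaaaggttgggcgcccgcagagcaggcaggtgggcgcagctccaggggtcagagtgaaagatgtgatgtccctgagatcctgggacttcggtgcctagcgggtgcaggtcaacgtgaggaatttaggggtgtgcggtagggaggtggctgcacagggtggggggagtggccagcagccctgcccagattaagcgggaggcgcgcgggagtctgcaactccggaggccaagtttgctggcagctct
The window of Col4a1 held 1 CCAAT and 1 GGGCGG and was 74.0% G and C, and that of Col4a4 held none of the 3 motifs and was 63.3% G and C. Over all 32851 windows of the RefSeq table, 13.6% held TATAAA, 37.4% CCAAT and 35.7% GGGCGG on either strand. Windows matched 35 of the 44 collagen genes, and of their 38 windows 13.2% held TATAAA, 34.2% CCAAT and 60.5% GGGCGG. The median content of G and C was 59.8% in the collagen windows and 52.7% over all windows. Its part in the share with GGGCGG was not tested. The marked matches do not overlap each other, and they describe letters only.

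Among the other collagens, 19 of 27 were tested, and the median log2 fold change was 0.86. Of these 19, 13 were higher (68.4%, against 24.5% of all genes) and 2 lower (10.5%, against 22.8%). The multiplexins, which lie at basement membrane zones and from which endostatin is cut in the case of Col18a1, both rose. Col18a1 measured 90.9, 80.9 and 83.3 CPM in control and 345, 248 and 203 CPM in cisplatin kidneys. It was the largest gain in level among the collagens, from 12.0 ± 0.736 to 37.5 ± 10.3 CPM per kilobase (log2 fold change 1.64, SE 0.168, edgeR adjusted p = 2.25e-05). Col15a1 measured 23.0, 20.3 and 16.5 CPM against 62.2, 33.7 and 31.7 CPM, a log2 fold change of 1.09 (SE 0.234, edgeR adjusted p = 0.00304).

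Type VI collagen forms beaded filaments near cell surfaces, built from Col6a1, Col6a2 and 1 longer chain. Col6a1 measured 15.2, 15.3 and 12.7 CPM in control and 78.0, 60.0 and 42.2 CPM in cisplatin kidneys. Col6a2 measured 8.62, 8.13 and 6.44 CPM in control and 41.0, 28.0 and 21.9 CPM in cisplatin kidneys. These partner chains rose to a like extent, 4.18-fold (log2 fold change 2.06, SE 0.193, edgeR adjusted p = 1.24e-05) and 3.91-fold (1.97, SE 0.213, edgeR adjusted p = 3.34e-05). Both genes lie on the same strand of chromosome 10, with 83890 bases between them.

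The longer chains of type VI gave mixed results. Col6a3, the usual one, measured 35.5, 30.8 and 26.7 CPM in control and 71.9, 35.7 and 37.4 CPM in cisplatin kidneys. Only cisplatin replicate 1 stood far above the control range, and the log2 fold change of 0.64 (SE 0.235, edgeR adjusted p = 0.0444) became 0.23 (adjusted p = 0.115) without that library. The call was also lost without any of the 3 control libraries and with DESeq2 (adjusted p = 0.151). The ratio of Col6a3 to Col6a1, in counts per kilobase, was 1.13, 0.978 and 1.02 in control and 0.447, 0.288 and 0.430 in cisplatin kidneys. By contrast the ratio of Col6a2 to Col6a1 overlapped between the groups, at 0.285 ± 0.0161 and 0.268 ± 0.0173 (SD, n = 3 per group).

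The alternative longer chains Col6a6, Col6a5 and Col6a4 lie in a row on chromosome 9, all on the minus strand. Col6a6 had 86, 90 and 115 counts in control and 10, 2 and 5 in cisplatin kidneys. The gene, which entered the test through its control libraries only, was 21.1-fold lower (log2 fold change -4.40, SE 0.354, edgeR adjusted p = 4.48e-06), and without cisplatin replicate 1 it measured -5.02. Its neighbour Col6a5 had 9, 11 and 8 counts against 23, 25 and 16, a log2 fold change of 0.85 (edgeR adjusted p = 0.0333) that DESeq2 did not call (adjusted p = 0.181) and that was lost when any of 4 single libraries was left out. Col6a4 was not tested, with 17, 6 and 10 counts in control and 3, 1 and 3 in cisplatin kidneys.

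The fibril-associated collagens with interrupted triple helices (FACIT) decorate the surface of fibrils. Of 9 such genes 5 were tested, of which 2 rose (40%, against 24.5% of all genes) and 1 fell (20%, against 22.8%). The share that fell was near that of all genes. Col12a1 measured 17.2, 16.8 and 15.4 CPM in control and 71.3, 46.0 and 28.8 CPM in cisplatin kidneys, a log2 fold change of 1.57 (SE 0.256, edgeR adjusted p = 0.000546). Col14a1, its near relative with the same number of encoded triplets (83), measured 60.3, 50.4 and 55.5 CPM against 70.1, 51.9 and 53.9 CPM. The groups overlapped for Col14a1 and it was not called (log2 fold change 0.08, SE 0.122, edgeR adjusted p = 0.605).

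Col19a1 had 110, 67 and 61 counts in control and 9, 16 and 6 in cisplatin kidneys. No cisplatin library came near the control range, and the fall, in a gene that also entered the test through its control libraries only, was 9.49-fold (log2 fold change -3.25, SE 0.297, edgeR adjusted p = 1.06e-05). Its downstream neighbour on chromosome 1, Col9a1, had no count in any library. Col16a1 was 1.81-fold higher (log2 fold change 0.86, edgeR adjusted p = 0.00467), and Col20a1 was not called (0.72, SE 0.443).

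Collagens of epithelial attachment rose from low levels. Col7a1, the anchoring fibril that ties an epithelium to the tissue under it, had 21, 17 and 26 counts in control and 130, 134 and 92 in cisplatin kidneys. The groups were far apart, and the increase was 4.39-fold (log2 fold change 2.13, SE 0.195, edgeR adjusted p = 1.06e-05). Col17a1, the membrane-spanning chain of hemidesmosomes, had 2, 2 and 1 counts in control and 20, 20 and 16 in cisplatin kidneys. Its fitted log2 fold change was 3.08 (SE 0.414, edgeR adjusted p = 0.000153), from a gene that entered the test through its cisplatin libraries only. Over all libraries 33.0% of the stranded counts at this locus lay on the opposite strand, and with the strand ignored its log2 fold change was 1.98, below those of Col7a1 and Col6a1 with the strand kept.

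Of the other membrane-spanning chains, Col13a1 was 1.92-fold higher (log2 fold change 0.94, edgeR adjusted p = 0.00468) and Col23a1 was not called (0.26, SE 0.264). The short-chain collagens, which form lattices, were low or flat. Col8a1, a chain of vessel walls, measured 9.84, 11.4 and 10.4 CPM in control and 11.4, 7.57 and 10.5 CPM in cisplatin kidneys and was not called (log2 fold change -0.10, SE 0.152). Col8a2 had 19, 6 and 7 counts against 49, 34 and 17. The groups overlapped, through control replicate 1, and the call at a log2 fold change of 1.30 (SE 0.418, edgeR adjusted p = 0.0255) became 1.92 without that library and was lost when any of 4 other single libraries was left out. Col26a1 was 1.82-fold higher (log2 fold change 0.86, edgeR adjusted p = 0.00507). Col10a1, the collagen of hypertrophic cartilage, had no count in control and 8, 12 and 4 in cisplatin kidneys, and 75.5% of the stranded counts at its locus lay on the opposite strand.

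The make-up of the collagen transcripts shifted with these changes. Type IV chains took 67.3% ± 0.947 of the collagen counts per kilobase in control and 48.1% ± 1.37 in cisplatin kidneys (SD, n = 3 per group). The fibrillar share went from 9.85% ± 0.759 to 14.7% ± 1.43 and that of the other collagens from 22.9% ± 0.477 to 37.3% ± 0.390, and no group overlapped. By gene, Col4a3 went from 22.1% to 6.02%, and Col18a1 from 8.11% to 17.9%. Fibrillar chains had the smallest share of the 3 classes in both groups.

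**Figure D5:**
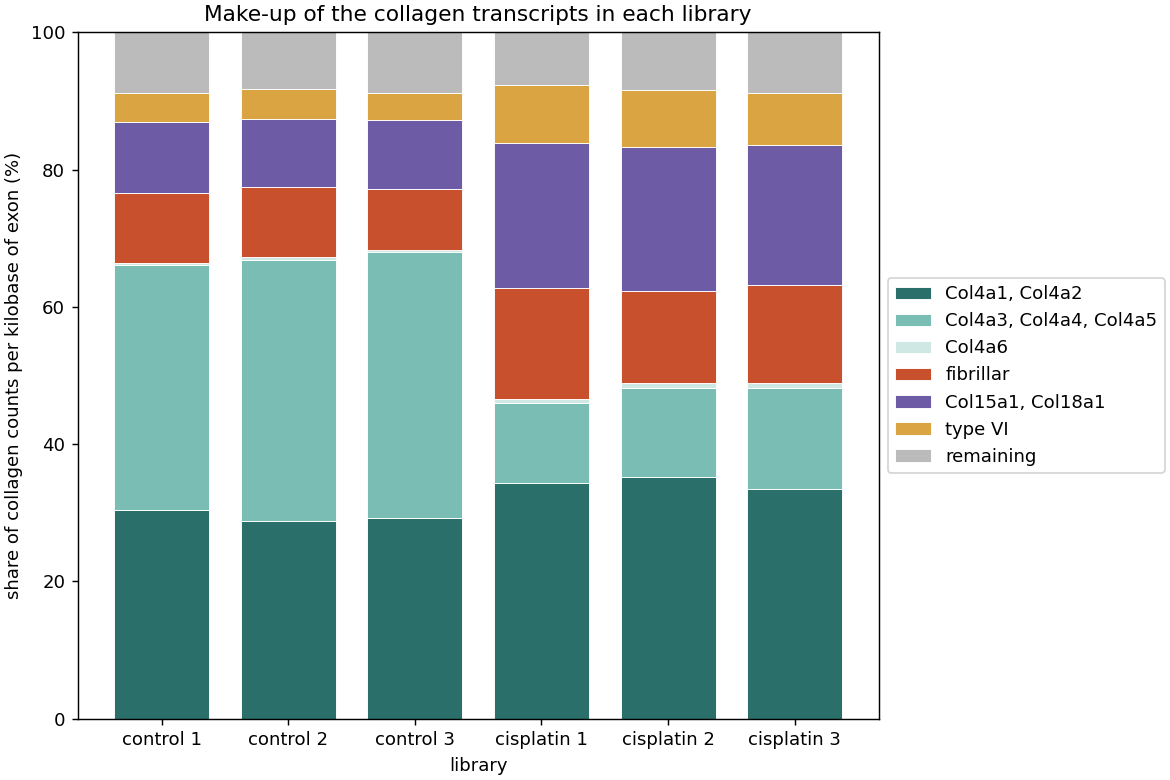
Share of all collagen counts per kilobase of exon taken by groups of chains, in percent, in each of the 6 libraries (stacked bars from 0 to 100). Col4a3, Col4a4 and Col4a5 together shrink from 35.6% to 38.7% in control to 11.7% to 14.7% in cisplatin libraries, while Col15a1 with Col18a1 widens from 9.85% to 10.3% to 20.4% to 21.1%.

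The cisplatin kidneys differed among themselves. Summed over all 44 genes, the level was 1389, 1302 and 1264 CPM in control and 2262, 1560 and 1349 CPM in cisplatin kidneys, so that the total overlapped with the control range in its lowest library. Cisplatin replicate 1 had the highest level of the cisplatin libraries in 25 of the 35 tested collagens, among them all 6 type IV chains, and cisplatin replicate 3 the lowest in 23. The shares by class differed far less between the same 3 libraries.

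Markers of fibroblasts and myofibroblasts moved with the collagens. Of 12 such markers, none of them at 0, 10 were tested. Of these, 8 were higher (80%, against 24.5% of all genes) and 2 were not called. Thy1 and Gli1, both among the 8, entered the test through their cisplatin libraries only. The summed level of the 12 markers was 202, 174 and 177 CPM in control and 391, 296 and 310 CPM in cisplatin kidneys, again highest in cisplatin replicate 1. Pdgfra, a growth factor receptor of fibroblasts, had a log2 fold change of 0.92 (edgeR adjusted p = 0.000252), and Dcn, the fibril-binding proteoglycan decorin, one of 1.58 (edgeR adjusted p = 3.92e-06). Macrophage markers were higher in 9 of 10 cases (90%, against 24.5% of all genes). They summed to 92.6 to 114 CPM in control and 281 to 340 CPM in cisplatin kidneys. Lyz2, a lysozyme of macrophages, had a log2 fold change of 2.59, while Csf1r, the receptor on which they depend, was at 0.20 and not called. Of 10 endothelial markers 4 were lower (40%, against 22.8% of all genes). Their sums were 423 to 437 CPM in control and 310 to 391 CPM in cisplatin kidneys. Kdr, the main VEGF receptor, had a log2 fold change of -0.73, and Plvap, of fenestrated vessels, one of -0.05 that was not called. The part of these cell types in the collagen changes was not tested.

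Genes of the machinery that makes collagen were called in both directions. Of 28 genes for synthesis and processing, 26 were tested, and 10 were higher (38.5%, against 24.5% of all genes) and 7 lower (26.9%, against 22.8%, a share near that of all genes). The median log2 fold change was 0.01, against 0.05 over all genes. With library totals as the scale, 14 were higher and 1 lower. Bmp1, the protease that removes the C-terminal propeptide, measured 3.53, 3.17 and 2.65 CPM in control and 11.9, 10.5 and 8.90 CPM in cisplatin kidneys (log2 fold change 1.74, SE 0.157, edgeR adjusted p = 9.91e-06). Its enhancer Pcolce was at 0.62, Adamts2, which removes the N-terminal propeptide, at 1.37, the collagen-binding protein Sparc at 0.81 and the chaperone Fkbp10 at 1.17. Adamts3, of the same family as Adamts2, was called higher as well, though it entered the test through its cisplatin libraries only. The related proteases Adamts14 (-0.01) and Tll1 (-0.42) were not called. The other higher genes, Serpinh1, Fkbp14, Colgalt1 and P3h4, are chaperones or modifying factors within the cell. The 5 lower genes with the lowest adjusted p were the prolyl hydroxylase chains P4ha1 (-0.65, edgeR adjusted p = 0.000179) and P4hb (-0.39), the prolyl 3-hydroxylase partner Crtap (-0.76), the lysyl hydroxylase Plod2 (-0.44) and the export receptor Mia3 (-0.47).

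All 7 tested collagen receptors of the 10 listed were higher (100%, against 24.5% of all genes), with a median log2 fold change of 0.78. For each of the 7, all cisplatin libraries lay above all control libraries, against 30.2% of all genes tested. With 1 library left out, 5 to 7 receptors were called higher. Lair1, an inhibitory receptor of immune cells, measured 1.85, 1.75 and 1.25 CPM in control and 6.03, 4.02 and 5.50 CPM in cisplatin kidneys (log2 fold change 1.67, SE 0.213, edgeR adjusted p = 0.000105). Mrc2, which takes up collagen for breakdown, rose by 1.26 on the log2 scale (edgeR adjusted p = 0.000775). The receptor kinases Ddr1 and Ddr2 rose by 0.74 and 0.78, and the integrin chain Itga2 by 0.89.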

How the data were processed

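Total RNA of 6 mouse kidneys (3 control, 3 cisplatin) was sequenced by the authors with a stranded kit, trimmed with Cutadapt and aligned with STAR to mm39. The deposited values are STAR raw read counts per gene. Counts of the transcript strand were used. Aligner settings and annotation release were not given in the sources used here. Read pairs that map to several places were not counted.

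Genes were fitted in edgeR 4.0.16 (R 4.3.3) with TMM factors, the quasi-likelihood F test and no covariate. The filter was filterByExpr with a minimum count of 10 and a minimum total of 15. The threshold was 0.05 after Benjamini-Hochberg adjustment. The fit was run on simulated counts in which few genes changed, so that check does not cover a shift over many genes. DESeq2 1.42.0 was the alternative tool. The biological coefficient of variation was 11.01%. Replicates differed by more than counting noise. Each library is 1 mouse, and dose, age and schedule are those of the study's methods.

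The genes and lists were chosen with earlier results of these data known. Values per library are given for type IV chains, for Col1a1, Col1a2 and Col3a1, and for collagens called at a log2 fold change of 1 or more in size or whose mean log2 CPM reached 4, and for others where a call turned on single libraries. From the synthesis and receptor lists up to 5 genes per direction with the lowest adjusted p are named, and from each marker list the 2 of highest mean log2 CPM with no length correction, of which 1 is not reported here. Exon lengths are the union of exons in GENCODE mouse release 39. Gly-X-Y runs of at least 5 triplets were counted in coding sequences of that release, since no protein table was used here. Promoter windows are RefSeq's.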

Additional observations from a re-analysis of the deposited data

How the results depend on the processing

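Of the 26 collagens called, 22 kept their call and direction under all alternatives in which they were tested, and Col6a3, Col6a5, Col8a2 and Col11a2 did not. Over all alternatives 17 to 26 collagens were called higher (18 to 23 with 1 library left out). With library totals as the scale, the median log2 fold change went from 0.05 to 0.48 over all genes and from 0.85 to 1.28 over the collagens. It then called 26 collagens higher, adding Col4a5, Col5a2, Col14a1 and Col23a1, still called 4 lower, and left 1 synthesis gene lower and 14 higher. It turned the sign of Col8a1 (0.33) and Col27a1 (0.11), neither called. Over all genes it called 8508 higher and 1375 lower, against 3841 and 3578. With at least 10 counts in every library, which 27 collagens had, Col6a6 and Col19a1 dropped out of the test, which left 2 collagens lower and 0 of the other collagens. Without the filter 1 receptor was lower. With the multiplexins added, 5 basement membrane collagens were higher. Upper-quartile factors called Col5a2 (adjusted p = 0.0459).

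With 1 library left out, 4 genes that were not called changed sign, namely Col5a3 (from -0.12 to 0.25), Col8a1 (from -0.23 to 0.06), Col14a1 (from -0.07 to 0.16) and Col24a1 (from -0.34 to 0.45). The cause was not tested. With the strand ignored, the other collagens took 23.4% and 37.7% of collagen counts per kilobase in control and cisplatin kidneys. With no length correction, the fibrillar share was 11.4% and 17.8%, that of the other collagens 20.1% and 34.4%, and that of type IV chains 68.5% in control.

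The replicate numbers were not taken to pair the mice, since the same-numbered libraries correlated at 0.133, 0.142 and 0.0997 in their deviations from the group means. Every library correlated best with its own number, which is a hint from the data and not from the design. With a replicate block, 22 collagens were higher and 4 lower, as without it, and 4087 genes were higher and 3796 lower in all.

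The depth limits the 9 collagens below the count filter, of which 2 were called without it, and those with few counts per library, such as Col11a1 and Col17a1. With 3 kidneys per group, a call missed does not show that a gene stayed the same.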
